A study of Rattus norvegicus with 48 samples.

Results

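The miRNAs described here are 6 mature miRNAs known for their high levels in hepatocytes, measured in the blood plasma of rats during the healing of skull defects. They are rno-miR-122-5p, rno-miR-802-5p, rno-miR-802-3p, rno-miR-192-5p, rno-miR-192-3p and rno-miR-194-5p, chosen by name from a list of liver miRNAs, and all 6 were found among the 645 mature miRNAs with counts. The plasma came from 12 male rats that were 12 weeks old at surgery, so the later samples come from older animals. They are given as Sprague-Dawley in the study's methods and as Wistar elsewhere in the paper. Each had a drilled full-thickness defect in the calvaria. On completion, the animals with the most and the least new bone by microCT were chosen as 6 strong and 6 weak regenerators, and each rat was bled from the tail vein ahead of the operation (baseline, week 0) and then 1, 4 and 8 weeks later, for a total of 48 samples (6 per group and time point). The defects were left empty or held a collagen hydroxyapatite scaffold, alone, with a plasmid coding for BMP2 and miR-590-5p, or with vesicles of mesenchymal stromal cells. These treatments were spread unevenly over both groups and the treatment of each rat was not mapped here, so treatment and regeneration cannot be told apart. No rats without surgery were analysed here, and time since surgery cannot be told apart from age, anaesthesia or repeated bleeding.

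A miRNA is cut from a hairpin transcript, and either side of the hairpin (the 5p or the 3p arm) can be loaded into an Argonaute protein, which then pairs with target mRNAs mainly through the seed, bases 2 to 8. miR-122 is the dominant miRNA of the hepatocyte, where it acts on lipid metabolism, and its rise in plasma is a widely used sign of liver injury. miR-802 is high in liver and has been tied to glucose metabolism. miR-192 and miR-194 come from shared transcripts that are also strong in the epithelium of intestine and kidney, so they mark the liver less strictly than miR-122.

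The mature sequences are shown because they separate the members by seed and tie miR-192-5p to a second miRNA. RefSeq held a mature sequence for 4 of the 6 members, on the rat assembly GRCr8, and the seed is in capitals.
rno-miR-122-5p: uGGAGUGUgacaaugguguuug
rno-miR-192-5p: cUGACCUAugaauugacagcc
rno-miR-215: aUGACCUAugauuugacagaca
rno-miR-192-3p: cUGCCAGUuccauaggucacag
rno-miR-194-5p: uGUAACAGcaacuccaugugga
rno-miR-122-3p: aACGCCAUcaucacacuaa
rno-miR-194-3p: cCAGUGGGgcugcuguuaucu
The 4 members had 4 different seeds. miR-192-5p shared its seed with miR-215, which was not analysed here, miR-192-3p shared its seed with miR-3084c-3p, also not analysed here, and miR-122-5p and miR-194-5p shared theirs with no other rat miRNA in the RefSeq table. miR-122-3p and miR-194-3p are the opposite arms of member hairpins and are used for comparison only.

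The hairpins are shown because several results below compare their arms, and the mature arms listed by RefSeq are in capitals. Mir122 lies at chr18:61028817-61028901 and Mir192 at chr1:212994209-212994318, both on the plus strand of GRCr8. Mir802 lies at chr11:46112362-46112457, on the plus strand, inside a long non-coding RNA gene, and stands in lower case because its arms are not listed there.
Mir122: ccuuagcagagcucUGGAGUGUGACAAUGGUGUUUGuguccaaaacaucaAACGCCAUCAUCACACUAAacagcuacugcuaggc
Mir192: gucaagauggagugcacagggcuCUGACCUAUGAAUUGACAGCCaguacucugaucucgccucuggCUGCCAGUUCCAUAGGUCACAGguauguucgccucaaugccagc
Mir194-2: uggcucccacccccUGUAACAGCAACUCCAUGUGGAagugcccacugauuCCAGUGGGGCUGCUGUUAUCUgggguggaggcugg
Mir802: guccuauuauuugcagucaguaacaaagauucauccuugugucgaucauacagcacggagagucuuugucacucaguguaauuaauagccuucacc
Mir194-2, at chr1:212994024-212994108, ends 100 bases before Mir192 on the same strand. The same mature miR-194-5p is also made from Mir194-1 on chromosome 13, which lies 191 bases from Mir215 within the gene Iars2, so its reads cannot be assigned to either hairpin. The miR-194-3p listed in RefSeq comes from Mir194-2.

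The miRNA reads per sample ranged from 393259 to 1586398 (median 796311), and levels are given as RPM, reads scaled to 1000000 miRNA reads. The 12 samples of week 8 stood apart: they held 91.1 to 144 reads of UniSp2, an RNA added at extraction, per 1000 miRNA reads, against 23.3 to 60.4 in the other 36 samples. By the test described below, the week 1 samples had 5 of 7 red blood cell miRNAs higher and 0 lower than baseline. Those of week 4 had 0 and 0, and those of week 8 had 4 and 1. Of all miRNAs tested, 12.5% were called higher at week 1 and 4.19% were called in either direction at week 4. At week 8, 14.2% were called higher and 26.1% lower. The summed level of the 7 red blood cell miRNAs ran from 235950 to 335356 RPM in the baseline samples. It ran from 254327 to 441332 RPM in those of week 1 and from 269194 to 437376 RPM in those of week 4. The samples of week 8 lay between 320768 and 430866 RPM. The median log2 fold change of these 7 miRNAs from baseline was 0.43 (week 1), 0.34 (week 4) and 0.39 (week 8). Week 4 thus also leaned higher, though 0 of the 7 were called. The part of these shifts in the results below was not tested, except where a value is given.

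The members covered almost 3 orders of magnitude in mean level over the 48 samples. miR-192-5p led with 7465 RPM and ranked 30 of 645 miRNAs, followed by miR-122-5p with 1265 RPM (rank 65) and miR-802-5p with 488 RPM (rank 106). The other 3 were scarce, with 30.4 RPM for miR-192-3p, 25.8 RPM for miR-802-3p and 9.77 RPM for miR-194-5p. RPM values of different miRNAs also carry the ligation bias of each sequence, so this order describes reads and not molecules. miR-192-3p rested on 6 to 61 reads per sample, miR-802-3p on 3 to 150 and miR-194-5p on 0 to 35. miR-194-5p was at 0 in rat 21 (strong) at baseline, where a count of 0 allows up to 6.22 RPM. The defining hepatocyte miRNA, miR-122-5p, was read in all 48 samples, with at least 73 reads.

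**Figure D1:**
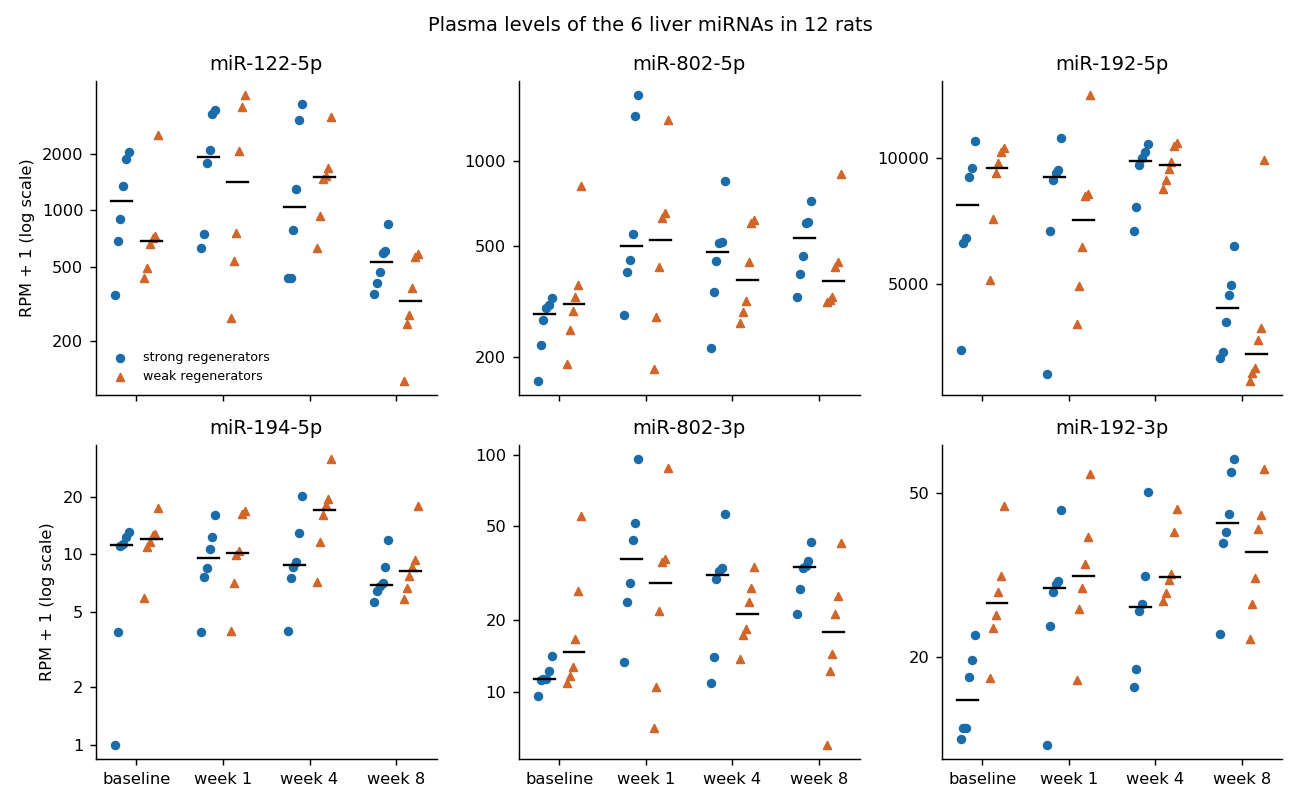
Each panel shows the level of 1 miRNA as RPM + 1 on a log axis at baseline and at weeks 1, 4 and 8, with 6 strong regenerators (blue circles) and 6 weak regenerators (orange triangles) per time point and the group median as a bar. The levels of miR-122-5p and miR-192-5p at week 8 lie low, and the point at the bottom of the miR-194-5p panel is the sample with 0 reads.

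At week 1, miR-122-5p and both arms of miR-802 stood higher than before surgery, with fitted folds of 1.96 to 2.46, while miR-192-5p and miR-194-5p were close to their baseline levels. Differences were tested on the counts with edgeR's quasi-likelihood test over all miRNAs, with Benjamini-Hochberg adjustment (FDR) and calls at an FDR under 0.05. miR-802-5p ran from 164 to 818 RPM at baseline (median 295) and from 180 to 1720 RPM at week 1 (median 496). The ranges overlapped, 9 of 12 rats rose, and the highest week 1 levels belonged to rats 29, 21 and 25. Its log2 fold change of 1.21 (SE 0.25) had an edgeR FDR of 2.56e-04 and held an FDR of at most 0.00808 whichever rat was left out.

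miR-122-5p ran from 353 to 2534 RPM at baseline (median 720) and from 263 to 4139 RPM at week 1 (median 1938). It was higher at week 1 in 8 of 12 rats, and individual rats moved between a log2 change of -1.47 and one of 3.22. The log2 fold change was 0.97 (SE 0.36), with an edgeR FDR of 0.0490. This call was marginal: leaving out any rat but rat 2 gave an FDR between 0.0510 and 0.166, and of 8 other settings only RLE scaling kept it (0.0482), with an FDR of 0.0519 (DESeq2) to 0.195 (UniSp2 scaling) in the other 7 and of 0.0553 when blocking on the rat. Its opposite arm, miR-122-3p, passed more clearly, with a log2 fold change of 1.22 (SE 0.28) and an edgeR FDR of 7.87e-04.

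miR-802-3p ran from 8.63 to 54.3 RPM at baseline (median 10.99) and from 6.06 to 94.6 RPM at week 1 (median 31.1). It was higher in 9 of 12 rats, with a log2 fold change of 1.301 (SE 0.32) and an edgeR p of 1.81e-04 before adjustment. It fell below the abundance filter of this comparison (a mean of 36.9 CPM, normalized counts scaled like RPM) and so carries no FDR in it. Without that filter its edgeR FDR was 0.00777, and it passed in each of the 7 alternatives that tested it. Among the fits without 1 rat, only that without rat 29 gave it an FDR above the threshold (0.0548).

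The arms of miR-192 and miR-194-5p differed less at week 1. miR-192-5p had a median of 9115 RPM at baseline and of 8150 RPM at week 1, with a log2 fold change of 0.02 (SE 0.18, edgeR FDR 0.934). miR-192-3p moved from a median of 20.1 to 28.7 RPM (log2 fold change 0.51, SE 0.21, below the filter). miR-194-5p moved from 10.4 to 9.23 RPM (0.10, SE 0.32, below the filter). In all, 2 of the 3 members tested were called, both higher, against 50 of 232 miRNAs (21.6%) called in either direction and 29 (12.5%) called higher. That split of 29 higher and 21 lower became 7 and 25 with library size scaling and 3 and 59 with UniSp2 scaling.

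At week 4, none of the 6 members passed the edgeR test, against 27 of 645 miRNAs (4.19%), and 26 of these 27 were lower (27 of 33 by DESeq2). All 6 estimates were positive, from 0.31 for miR-192-5p to 0.71 for miR-122-5p on the log2 scale. Before adjustment, 3 members lay under 0.05, as did 115 of the 645 miRNAs, namely miR-802-5p (log2 fold change 0.59, SE 0.25), miR-802-3p (0.71, SE 0.33) and miR-192-3p (0.50, SE 0.21), and DESeq2 also called 0 members. Without rat 25, whose baseline levels were high, the edgeR FDR was 0.0385 for miR-802-5p and 0.0461 for miR-802-3p, and without rat 6 it was 0.0432 for miR-192-3p. The median of miR-122-5p at week 4 was 1388 RPM, and the 12 rats lay between 431 and 3713 RPM. Between weeks 1 and 4, 0 of 645 miRNAs (0%) were called by edgeR and 79 had an unadjusted p under 0.05, among them miR-802-5p (log2 fold change -0.62, SE 0.25, edgeR FDR 0.396). DESeq2 called 1 miRNA there, not a member.

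At week 8 the members moved in different directions. The 5p arms of miR-122 and miR-192 were lower than at baseline, while miR-192-3p and miR-802-5p were higher. Of the 6 members tested, 4 were called, against 250 of 620 miRNAs (40.3%). The 2 higher members compare with 88 miRNAs (14.2%) called higher, and the 2 lower members with 162 (26.1%) called lower.

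miR-122-5p ran from 121 to 848 RPM at week 8 (median 435), against 353 to 2534 RPM at baseline. It was lower in 10 of 12 rats, and both rats in which it was higher were strong regenerators. The log2 fold change was -1.18 (SE 0.37), with an edgeR FDR of 0.00779. miR-192-5p ran from 2922 to 9928 RPM at week 8 (median 3783), against 3463 to 10988 RPM at baseline. It was lower in 11 of 12 rats, with a log2 fold change of -0.84 (SE 0.18) and an edgeR FDR of 1.12e-04. At week 8, 11 of the 12 rats lay at or below 6163 RPM and rat 25 alone lay higher, at 9928 RPM.

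miR-192-3p, cut from the same hairpin as miR-192-5p, moved the other way. It ran from 21.2 to 59.5 RPM at week 8 (median 39.7) and from 11.7 to 45.6 RPM at baseline, and was higher in 9 of 12 rats, 6 strong and 3 weak. The log2 fold change was 0.85 (SE 0.21), with an edgeR FDR of 9.94e-04. miR-802-5p ran from 313 to 899 RPM (median 428) and was higher in 10 of 12 rats (log2 fold change 0.66, SE 0.25, edgeR FDR 0.0299). Its FDR was 0.0693 without rat 21, 0.0524 without rat 5 and 0.0743 with library size scaling. miR-802-3p had an estimate of like size (0.71, SE 0.33) and an edgeR FDR of 0.0879, which was 0.0456 with the rat as a block, 0.0408 with RLE scaling, 0.0309 by DESeq2, 0.0192 without rat 25 and 0.0423 without rat 6. miR-194-5p had a median of 6.39 RPM at week 8 (log2 fold change -0.31, SE 0.34, edgeR FDR 0.482).

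With libraries scaled by UniSp2 instead, all 6 members were called lower at week 8, as were 498 of 645 miRNAs, with 1 higher. On that scale miR-802-5p had a log2 fold change of -1.24 and miR-192-3p of -1.003, while miR-122-5p had one of -3.07. The median over all miRNAs was -0.25 on the TMM scale used above and -1.84 on the spike-in scale. The increases of miR-802-5p and miR-192-3p are therefore relative to the other miRNAs. The samples are plasma and not cells, so these levels give neither the number of cells of a type nor the RNA per cell.

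**Figure D2:**
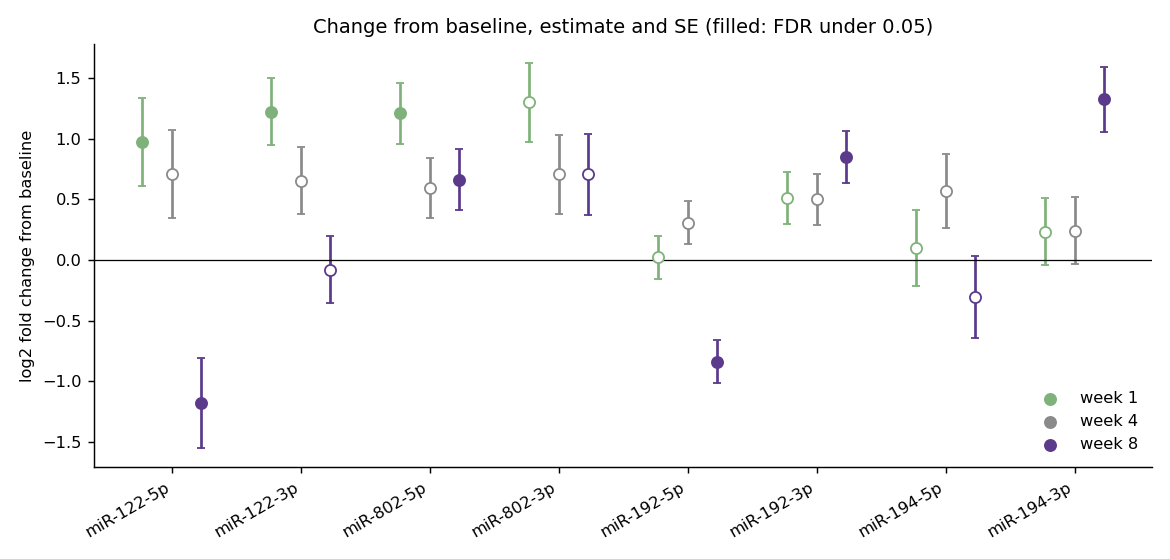
The plot shows the log2 fold change from baseline (y axis) of the members and of miR-122-3p and miR-194-3p, with SE bars, at weeks 1, 4 and 8, filled where the edgeR FDR was under 0.05. At week 8, miR-122-5p (-1.18) and miR-192-5p (-0.84) lie below 0 and their 3p partners at -0.08 and 0.85, positions that move down when scaled to UniSp2 reads. The open week 1 points of miR-802-3p, miR-192-3p, miR-194-5p and miR-194-3p were not tested because of the abundance filter.

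Against week 4, the levels at week 8 fell in miR-122-5p, miR-192-5p and miR-194-5p. edgeR called 213 of 532 miRNAs (40%), of which 137 (25.8%) were lower, and 3 of the 6 members, all lower. The split of 76 higher and 137 lower became 106 and 112 with RLE scaling, 102 and 111 by DESeq2 and 1 and 453 with UniSp2 scaling. miR-192-5p fell in 12 of 12 rats, with a log2 fold change of -1.15 (SE 0.18, edgeR FDR 4.85e-07), and the week 4 range of 6670 to 10900 RPM overlapped that of week 8 only through rat 25. miR-122-5p fell in 11 of 12 rats (-1.89, SE 0.38, edgeR FDR 3.73e-05). miR-194-5p fell in 9 of 12 rats (-0.88, SE 0.33, edgeR FDR 0.0282), and this call held only when rat 2, 21 or 25 was the rat left out, with an FDR of 0.0528 to 0.179 without any of the others. It was also lost with RLE scaling (0.0714) and by DESeq2 (0.0559). The miR-802 arms had estimates of 0.07 (SE 0.25, 5p) and -0.0017 (SE 0.34, 3p), and miR-192-3p had one of 0.35 (SE 0.21), which DESeq2 called higher (0.49, DESeq2 FDR 0.0435).

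The ratio of 5p to 3p reads within a hairpin does not depend on how libraries are scaled, so it was compared within each rat. The test was an exact two-sided sign-flip permutation over the 12 rats, with p-values adjusted over the 12 comparisons of 4 hairpins and 3 weeks. For miR-192 the ratio ran from 226 to 854 at baseline (median 347) and from 65.7 to 181 at week 8 (median 102). The week 8 range lay wholly below that of baseline. The mean log2 change was -1.78 ± 0.83 (SD, n = 12), lower in 12 of 12 rats (exact sign-flip adjusted p = 0.00293). For miR-122 the ratio ran from 1.75 to 8.44 at baseline (median 3.42) and from 1.14 to 2.63 at week 8 (median 1.76). The mean log2 change was -1.02 ± 0.66 (SD, n = 12), again lower in 12 of 12 rats (exact sign-flip adjusted p = 0.00293).

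For miR-194 the 5p reads may come from both hairpins and the 3p reads are those of Mir194-2, so this is no ratio within 1 hairpin. Counted with 0 to 35 reads for the 5p arm and 2 to 38 for the 3p arm, the mean log2 change at week 8 was -1.23 ± 1.26 (SD, n = 12), lower in 10 of 12 rats (exact sign-flip adjusted p = 0.0322). This call was fragile, since leaving out any of 10 rats (all but rats 5 and 21) gave an exact sign-flip adjusted p of 0.0527 to 0.0645. The opposite arm, miR-194-3p, rose in 12 of 12 rats from a median of 11.97 to 25.6 RPM (log2 fold change 1.33, SE 0.27, edgeR FDR 5.71e-05), a rise that turned to -0.56 when scaled to UniSp2 reads. The ratio of miR-802 did not pass the test at any week, with a mean log2 change of -0.04 ± 0.76 at week 8 (SD, n = 12, exact sign-flip adjusted p = 0.918). At week 1 only miR-192 passed (-0.56 ± 0.50, SD, n = 12, lower in 10 of 12 rats, exact sign-flip adjusted p = 0.0176).

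Such shifts at week 8 were widespread. Of 97 hairpins with a mean of at least 5 RPM on both arms, 20 (20.6%) had a lower 5p to 3p ratio in 12 of 12 rats and 29 (29.9%) in at least 10 of 12. Another 10 had a higher ratio in 12 of 12 rats. The median change over the 97 hairpins was -0.05 at week 8 on the log2 scale, with quartiles of -0.90 and 0.68, whereas at week 4 the quartiles were -0.17 and 0.09. miR-192 had the 9th lowest change at week 8 and the 6th lowest at week 1. The libraries of week 8 also stood apart in their UniSp2 reads, and the part of that in the arm shifts was not tested.

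**Figure D3:**
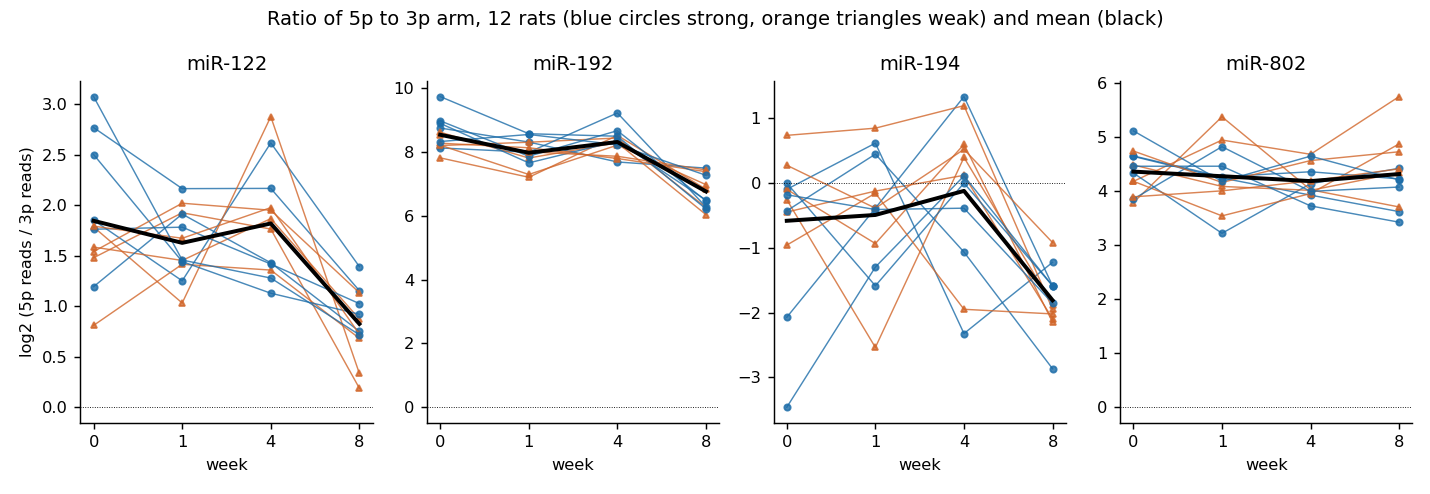
Each panel shows the log2 ratio of 5p to 3p reads (y axis) of 1 hairpin over weeks 0, 1, 4 and 8 (x axis), with a thin line per rat, blue for the 6 strong and orange for the 6 weak regenerators, and the mean in black. The lines of miR-122 and miR-192 end below their start in 12 of 12 rats, those of miR-194 in 10, and those of miR-802 in 7.

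No member passed the test between strong and weak regenerators. Over all time points edgeR called 0 of 645 miRNAs (0%), with 64 at an unadjusted p under 0.05, and DESeq2 also called 0. 2 members were among the 64, both lower in strong regenerators: miR-192-3p with a log2 difference of -0.35 (95% interval -0.63 to -0.06, edgeR FDR 0.328) and miR-194-5p with one of -0.49 (-0.92 to -0.06, edgeR FDR 0.387). For the other 4 the 95% intervals reached from -0.29 to 0.71 for miR-122-5p, -0.33 to 0.37 for miR-802-5p, -0.37 to 0.55 for miR-802-3p and -0.34 to 0.15 for miR-192-5p. These fits treat the 4 samples of a rat as independent.

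At baseline edgeR called 0 of 645 miRNAs (0%), and 1 member had an unadjusted p under 0.05. miR-192-3p ran from 11.7 to 21.6 RPM in strong regenerators (median 14.7) and from 16.8 to 45.6 RPM in weak ones (median 26.1), and the groups overlapped. The log2 difference was -0.84 (SE 0.29, edgeR FDR 0.535). miR-802-3p at baseline was tight in strong regenerators, 8.63 to 13.2 RPM, and wide in weak ones, 9.88 to 54.3 RPM, with a log2 difference of -0.92 (SE 0.47, edgeR FDR 0.703). miR-122-5p had a higher median in strong (1129 RPM) than in weak regenerators (684 RPM), with overlapping ranges and a log2 difference of 0.45 (SE 0.51, edgeR FDR 0.836).

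At weeks 1 and 4 edgeR called 0 of 645 miRNAs (0% each), with 0 members at an unadjusted p under 0.05 at week 1 and 1 at week 4, miR-194-5p, which ran from 2.98 to 19.2 RPM in strong and from 6.13 to 30.6 RPM in weak regenerators. At week 8 it called 1 miRNA (0.155%), miR-203b-3p, which is no member and was named after its values were seen. DESeq2 called 0 miRNAs at each of these time points. The changes from baseline to weeks 1, 4 and 8 differed between the groups in 0 of 645 miRNAs each (0%) by edgeR and by DESeq2. For the change to week 8, 2 members lay under 0.05 before adjustment, as did 26 of the 645 miRNAs, with positive estimates (strong minus weak). They were miR-802-3p (log2 difference of changes 1.51, SE 0.66, edgeR FDR 1.00) and miR-192-3p (0.96, SE 0.41, edgeR FDR 1.00). For both, all 6 strong regenerators were above their baseline at week 8, against 1 of 6 weak regenerators for miR-802-3p and 3 of 6 for miR-192-3p. The log2 difference between the groups at week 8 was 0.58 (SE 0.46) for miR-802-3p and 0.11 (SE 0.28) for miR-192-3p. At baseline these differences were -0.92 (SE 0.47) and -0.84 (SE 0.29).

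Samples that were high in 1 of the members tended to be high in the others. With the mean of each time point subtracted from log2(RPM + 1), Pearson's r was positive for each of the 15 pairs, from 0.18 to 0.83 (median 0.50), and 14 pairs had an adjusted p under 0.05 in a two-sided test with 100000 permutations of whole rats, adjusted over the 15 pairs. Over all 47895 pairs of miRNAs with a mean of at least 10 RPM, the median r was 0.07, with quartiles of -0.12 and 0.26. The samples of a rat share an animal, and all values of a sample share a library and a total.

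The strongest pair was that of the arms of miR-802, with r = 0.83 and Spearman's rho = 0.78 over 48 samples (permutation p = 1e-05, the smallest possible, adjusted 3.75e-05). miR-122-5p and miR-802-5p, which come from different chromosomes, had r = 0.75 and rho = 0.71 (permutation p = 1e-05, again the smallest possible). Leaving out the 2 samples farthest from the median of miR-122-5p gave r = 0.71. Within single time points, in order from baseline to week 8, the r of that pair was 0.67, 0.89, 0.63 and 0.59. It lay above 99.4% of all abundant pairs.

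miR-192-5p went with miR-802-5p (r = 0.66, rho = 0.64) and with miR-122-5p (r = 0.62, rho = 0.60). Within time points these lay between 0.54 and 0.83 and between 0.44 and 0.82. Its own opposite arm was no closer (r = 0.58, rho = 0.48). miR-194-5p, whose Mir194-2 hairpin neighbours Mir192, had r = 0.48 with miR-192-5p (rho = 0.56, permutation p = 5.10e-04) and 0.18 with miR-802-3p (rho = 0.15, permutation p = 0.199), the 1 pair that did not pass. The scarce reads of miR-194-5p limit how high its r can be. Without rat 21 the count of pairs that passed was 11 and without rat 25 it was 12.

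**Figure D4:**
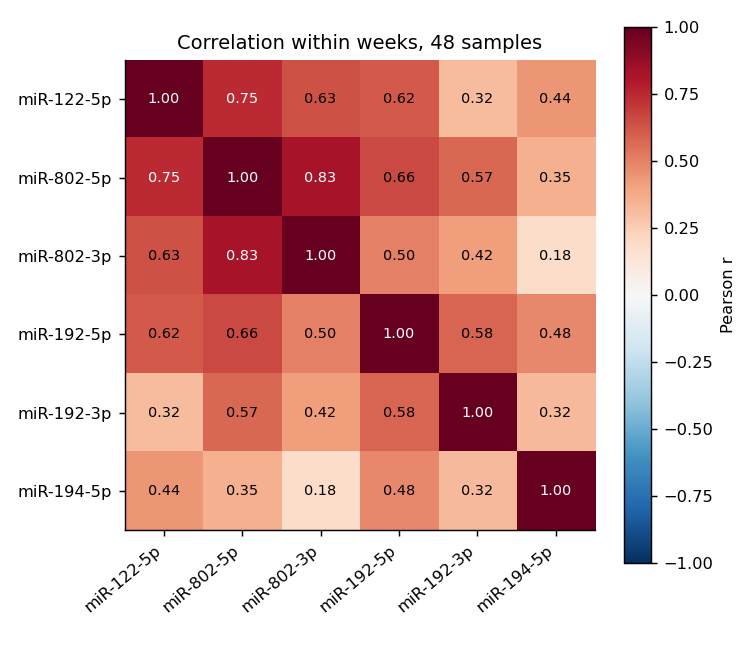
The grid gives Pearson's r between the 6 members over 48 samples after each time point's mean was subtracted, coloured from -1 (blue) to 1 (red). Each pair is positive, from 0.18 for miR-802-3p with miR-194-5p to 0.83 for both arms of miR-802.

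**Figure D5:**
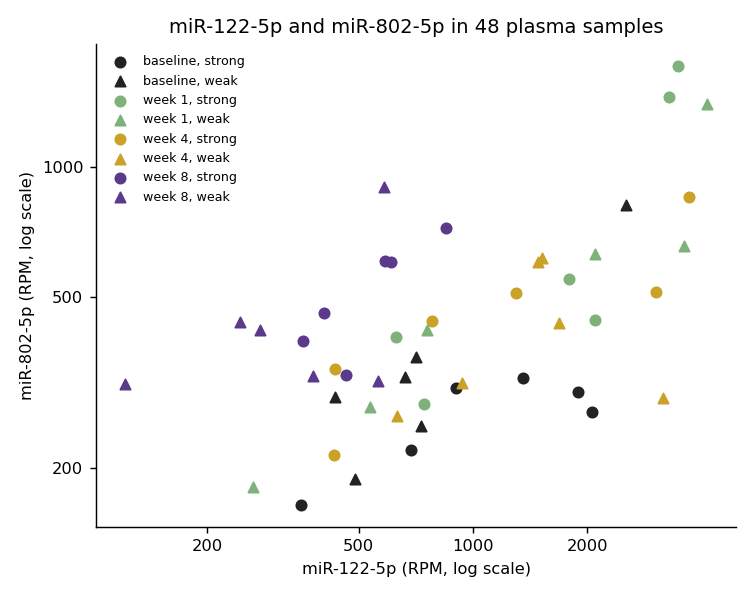
Each point is 1 plasma sample, with the RPM of miR-122-5p on the x axis and that of miR-802-5p on the y axis, both on log scales, colours for the time point, circles for strong and triangles for weak regenerators. The week 8 samples keep miR-802-5p between 313 and 899 RPM while their miR-122-5p lies at or below 848 RPM.

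Each member was also compared with the 305 other abundant miRNAs, the members themselves left out. The one whose profile was most like that of miR-122-5p was its opposite arm miR-122-3p (r = 0.90 over 48 samples, time point means subtracted), followed by miR-101b-3p (0.80) and miR-24-3p (0.62). Among these 305, miR-122-3p was also nearest to miR-802-5p (0.88) and to miR-802-3p (0.79). miR-101b-3p led for miR-192-5p (0.79), ahead of miR-200b-3p (0.71), a miRNA of epithelia. miR-192-3p was nearest to miR-375-3p (0.66), a miRNA of endocrine cells, then to miR-132-3p (0.63) and miR-194-3p (0.59). miR-194-5p had no neighbour above 0.59 (miR-7a-2-3p).

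A list of 12 other miRNAs with roles in liver, among them miR-122-3p and miR-194-3p, was mostly not called at week 1. Of 10 tested, 1 was called higher by edgeR, miR-122-3p, and 0 lower, against 21.6% of all miRNAs tested. Their median log2 fold change was 0.23, against -0.007 over all miRNAs tested there. At week 4 edgeR called 0 of 12, while the members' own counts were 2 of 3 at week 1 and 0 of 6 at week 4. At week 8 it called 8 of 12, 4 higher and 4 lower, against 40.3% of all miRNAs tested. The list median was then 0.08 on the log2 scale, against -0.26 over the miRNAs tested there. miR-148a-3p (log2 fold change -1.04, SE 0.11), miR-193b-3p (-0.89, SE 0.15), miR-101b-3p (-0.59, SE 0.12) and miR-101a-3p (-0.33, SE 0.10) were lower. miR-194-3p, miR-22-3p (0.75, SE 0.15), miR-148a-5p (0.72, SE 0.20) and miR-107-3p (0.38, SE 0.11) were higher. On the TMM scale the arms of miR-148a thus also moved in opposite directions, with the 5p arm higher and the 3p arm lower, the reverse of miR-192. As for the members, these directions are relative to the other miRNAs. The 5p to 3p ratio of miR-148a, which does not depend on scaling, was higher at week 8 in 12 of 12 rats (mean log2 change 1.85). Between strong and weak regenerators edgeR called 0 of the 12.

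Of 8 counted miRNAs listed for intestinal and kidney epithelium, tissues that also hold miR-192 and miR-194, edgeR called 0 at weeks 1 and 4. At week 8 it called 0 higher and 2 lower. Over all miRNAs tested, 21.6% were called at week 1 and 4.19% at week 4. The shares at week 8 were 14.2% higher and 26.1% lower, and all these shares also stand beside the lists that follow. The summed level of the 8 ran from 16548 to 37389 RPM at baseline and from 14021 to 34876 RPM at week 8. That sum mainly follows miR-203a-3p (mean 12596 RPM) and miR-30a-5p (mean 8335 RPM), since each of the others had a mean of at most 952 RPM. Whether these reads came from intestine or kidney was not tested. At week 8 the 5 leukocyte miRNAs split into 2 higher and 3 lower, and 1 of 5 platelet miRNAs was lower. In the same samples 1 of 8 muscle miRNAs was higher and 1 lower, as were 1 and 1 of the 2 endocrine miRNAs. In these lists edgeR called 0 miRNAs at weeks 1 and 4, with 2 of the 8 muscle miRNAs tested at week 1.

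In RPM, the members ran lower in samples with a higher haemolysis ratio, the log2 ratio of miR-451-5p, which red blood cells carry, to miR-23a-3p. All RPM values of a sample share a total with the red blood cell miRNAs. The same r was not computed for miRNAs outside the members, so this is not shown to be particular to them. From baseline through week 8 the median log2 ratio of the time points was 2.30, 2.74, 2.55 and 3.03. With time point means subtracted, r was negative for all 6 members over 48 samples, from -0.23 for miR-194-5p to -0.49 for miR-802-5p (rho = -0.46, permutation p = 0.00459, adjusted over the 6 members 0.0138), and 4 of 6 had an adjusted p under 0.05. Without the 2 samples farthest from the median of the ratio, r of miR-802-5p was -0.45. Taken in the same order, r of miR-802-5p within a time point was -0.48, -0.59, -0.24 and -0.65. On TMM-normalized values 0 of 6 passed, without week 8 also 0, and with miR-16-5p in place of miR-451-5p 1 passed. Without rat 21 the count was 0, and without rat 5 it was 1.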

How the data were processed

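Small RNA of plasma was sequenced in 48 samples of 12 rats after single-adapter ligation. The authors trimmed reads with cutadapt 3.3 (quality control with FastQC 0.11.9 and MultiQC 1.10), aligned them using Bowtie 1.3.0 and miRDeep2, first against the genome and next against rat miRNAs of miRBase, and deposited raw read counts of 645 miRNAs and 3 spike-ins, without normalization. The build in the submitters' processing notes is a human one, while the paper's methods name a rat one. Unique molecules were not counted, so the limit given for a count of 0 covers counting error only.

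Groups follow the labels, and baseline samples, labelled with no outcome, took that of their animal. Tests used edgeR 4.0.16 (R 4.3.3) with TMM normalization on all 48 samples, a filter on mean abundance chosen as DESeq2 does, and calls at an FDR under 0.05. The fits treat the samples of a rat as independent. Arm ratios used 0.5 reads added to each arm. Permutations ran in Python 3.11.15 (scipy 1.17.1, numpy 2.4.6, pandas 2.3.3) and figures in matplotlib 3.10.9. Intervals of strong minus weak are normal approximations from the SE. All tests were two-sided except that of the intraclass correlation, which was one-sided for a higher value, and scripts were tested on simulated data.

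The 6 members, the lists and the tests were chosen with earlier results of these data known. The named miRNAs are the members, their opposite arms, the 3 nearest neighbours of each and the called miRNAs of the liver list. The 97 hairpins compared beside the members were chosen after values were seen. Alternatives were library size, RLE or UniSp2 scaling, filterByExpr or no filter, DESeq2 1.42.0, limma-voom (limma 3.58.1), the rat as a block, only the time points compared, summed samples, no week 8, each rat left out, and other pseudocounts, ratios and thinning. Same-numbered samples come from the same rat and so pair: the mean r of their deviations from the group averages was 0.107 in 72 pairs, against -0.03 over 1056 pairs of different rats. Replicates differed by far more than counting (chi-square per degree of freedom of at least 24.7 over 120 pairs).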

Additional observations from a re-analysis of the deposited data

Results flagged for a closer look

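In 48 groups of 6 samples, 7 had a highest sample that lay apart from the others by Dixon's criterion at the 95% level, and all 7 were rat 25, a weak regenerator. The criterion looked at both ends of each group. For normally distributed values, chance gives about 1 group in 20 with a sample apart at either end, and fewer with a highest sample apart. The criterion was applied to RPM without a log scale, and its rate for such values was not checked. The members are also correlated, so the 7 are not independent. At baseline rat 25 had 2534 RPM of miR-122-5p against at most 732 in the other weak regenerators, 818 RPM of miR-802-5p against at most 361, and 54.3 RPM of miR-802-3p against at most 25.7. At week 1 it had 86.9 RPM of miR-802-3p against at most 35.2. At week 8 it had 9928 RPM of miR-192-5p against at most 3914, 899 RPM of miR-802-5p against at most 437, and 16.9 RPM of miR-194-5p (9 reads) against at most 8.32.

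Among all 12 rats, rat 25 ranked 1 for miR-122-5p and miR-802-5p at baseline and 1 for miR-192-5p and miR-802-5p at week 8, but 6 for miR-194-5p at baseline and 5 for miR-122-5p and 11 for miR-194-5p at week 4. Its miRNA totals were 754637, 1115984, 489502 and 532863 at baseline and weeks 1, 4 and 8. Its haemolysis ratio (log2) was 1.63, 3.08, 2.31 and 2.58 at these time points. Whether depth or haemolysis had a part in its levels was not tested.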

How the results depend on the processing

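Of the counts of members called, those of weeks 1, 4 and 8 against baseline and of the comparisons of strong with weak regenerators stayed within 1.5 times under every alternative other than leaving out a rat, although the 2 members called at week 1 were miR-802-5p and miR-802-3p in place of miR-122-5p in all but RLE scaling. With the rat as a replicate block, the members called against baseline were 2 (week 1, both arms of miR-802), 0 (week 4) and 5 (week 8), and the changed calls of members were miR-122-5p and miR-802-3p at week 1 and miR-802-3p at week 8. Scaling to UniSp2 reads gave 6 members lower at week 8 against week 4 in place of 3, with 453 of 645 miRNAs lower in place of 137 of 532. It reversed miR-802-5p (-1.24), miR-802-3p (-1.16) and miR-192-3p (-1.003) at week 8 against baseline, and miR-802-5p (-1.50) and miR-192-3p (-1.21) against week 4. For the haemolysis ratio, 4 members passed in the main test, 0 on TMM-normalized values, 0 without week 8 and 1 with miR-16-5p, where r of miR-192-5p was 0.014 in place of -0.38, and the cause was not tested. With each rat left out in turn, the counts ran from 1 to 3 at week 1, 0 to 2 at week 4, 3 to 5 at week 8, 2 to 3 at week 8 against week 4, 11 to 14 pairs correlated, 0 to 4 members with the haemolysis ratio and 3 to 4 arm ratios. They stayed at 0 for week 4 against week 1, for each comparison of strong with weak regenerators and of their changes, and for persistence within a rat. The lowest haemolysis count, 0, was without rat 21. The arm ratio lost was that of miR-194 at week 8, without any of 10 rats. Depth limits the scarce members: 3 reads were worth 1.89 to 7.63 RPM. All miRNAs called moved by over 1.5 times with library size (32 in place of 50) and without a filter (25) at week 1, and with UniSp2 scaling at week 4 (63 in place of 27), week 8 (499 in place of 250) and week 8 against week 4 (454 in place of 213). In week 4 against week 1 there were 4 with the block and 1 by DESeq2 in place of 0, and in strong against weak at week 8 there were 0 with UniSp2 scaling and by DESeq2 in place of 1.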

Other observations

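The intraclass correlation measures how far the 4 samples of a rat resemble each other. The intraclass correlation over the 4 time points, on log2(RPM + 1) with time point means subtracted, was 0.24 for miR-802-5p, 0.18 for miR-192-5p, 0.17 for miR-802-3p, 0.05 for miR-122-5p, 0.04 for miR-192-3p and 0.02 for miR-194-5p. None of the 6 passed a one-sided permutation of rats within time points (smallest adjusted p = 0.239, for miR-802-5p, with an unadjusted p of 0.0477). The median over the 310 miRNAs with a mean of at least 10 RPM was 0.12, with quartiles of 0.02 and 0.24. miR-122-5p varied more than most: its SD within time points was 1.03 on the log2 scale, the 11th highest of the 310, against a median of 0.48. That of miR-192-5p was 0.49 (149th) and that of miR-802-5p 0.70 (66th).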
